A study of Arabidopsis thaliana with 4 samples.

Results

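The genes described here encode membrane transporters of Arabidopsis thaliana, namely cation/proton exchangers of the CHX family, nitrate and peptide transporters of the NPF and NRT families, zinc transporters of the ZIP family and a purine permease. They were chosen by name. A gene was taken if it had its own probe set on the Affymetrix ATH1 array and carried a symbol beginning with ABCA, ABCB, ABCC, ABCG, NPF, NRT, PUP, CHX, CNGC, UMAMIT, ZIP or HAK and a number. This gave 22 of 13286 loci with their own probe set. Symbols in capitals gave 10 of them, a symbol in lower case gave chx28, and RefSeq synonyms gave the other 11, all of the NPF family. The annotation held 264 genes of these 12 families by symbol or synonym. No ABC, CNGC, UMAMIT or HAK gene was among the 22, so transport by those families, and amino acid export with it, is not analysed here. The annotation did not list 8794 of the 22810 probe sets on the array. Whether genes of these families are among those was not checked, so their absence here does not mean that the array lacks them. PUP18 and NAXT1 shared a probe set with another gene and were left out.

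The tmm-1 line (stock CS6140) is mutated in TMM, which encodes a receptor-like protein that spaces stomata, and it was compared with Col-3 gl1, whose gl1 mutation leaves leaves nearly hairless. The series title names meristemoids, the precursors of stomata, as its subject. Array titles spell this control Col1g11, and the labels do not say whether tmm-1 carries gl1 as well. Each of the 4 arrays, 2 per line, held a pool of inflorescence tips at growth stage 6.10 from plants kept in chambers at 22 °C and 70% humidity under 125 µmol of light per square metre each second for 16 h a day. Nothing in the labels says that the pools came from separate plants, so p-values cover only differences from pool to pool, and these may be technical. Levels are MAS5 signals in array units. They cannot tell fewer cells of a type from less RNA per cell.

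As background, plants move ions and metabolites across membranes with large families of carriers. CHX proteins exchange potassium or other monovalent cations for protons, mostly on internal membranes, and many of their genes are known from pollen. NPF proteins are proton-coupled carriers whose substrates include nitrate, peptides, glucosinolates and hormones such as abscisic acid and gibberellin. NRT2 proteins take up nitrate at low supply, ZIP proteins bring zinc and other metal ions into the cytoplasm, and PUP proteins carry purines and related compounds.

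No transporter gene differed between the lines past the test. Of the 22 genes, 18 had a mean signal of at least 10 over the 4 arrays and were tested with limma, and 0 had an adjusted p below 0.05. Over all 16960 probe sets tested, limma called 104, or 0.613%, with 41 higher (0.242%) and 63 lower (0.371%) in tmm-1. At an unadjusted p below 0.05 there were 2 transporter genes of 18 (11.1%), NPF6.4 and NPF2.11, both higher in tmm-1, against 8.81% of all tested probe sets. The log2 change was above 0 in 11 of the 18 (61.1%), against 55% of all tested probe sets. The median log2 change of the 18 genes, of signal plus 10, was 0.27, and that of all tested probe sets was 0.03. Without tmm-1 replicate 2 the median of the 18 was -0.04.

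Many of these probe sets were dim. The highest signal of any Bacillus control probe set, which has no target in plant RNA unless spiked in, was 21.2 on any array and served as a yardstick of background. By array, the highest such signal was 10.4 and 21.2 in tmm-1 and 19.1 and 8.88 in Col-3 gl1. A signal under the yardstick can therefore exceed every Bacillus control on its own array. The yardstick was exceeded on all 4 arrays by 6 genes (NPF2.10, NPF2.11, NPF3.1, NPF6.2, NPF6.4 and PUP15), on some arrays by 9, and on none by 7. Dim signals were raised on tmm-1 replicate 2. The 10th percentile signal was 3.06 there, against 1.60 on tmm-1 replicate 1 and 1.59 and 1.54 on the Col-3 gl1 arrays. Among the 12 tested transporter genes with a mean signal under 30, 8 (66.7%) had their highest signal on tmm-1 replicate 2, as did 49.9% of all tested probe sets that dim. The part of this array in the values below was not tested beyond leaving it out.

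**Figure D1:**
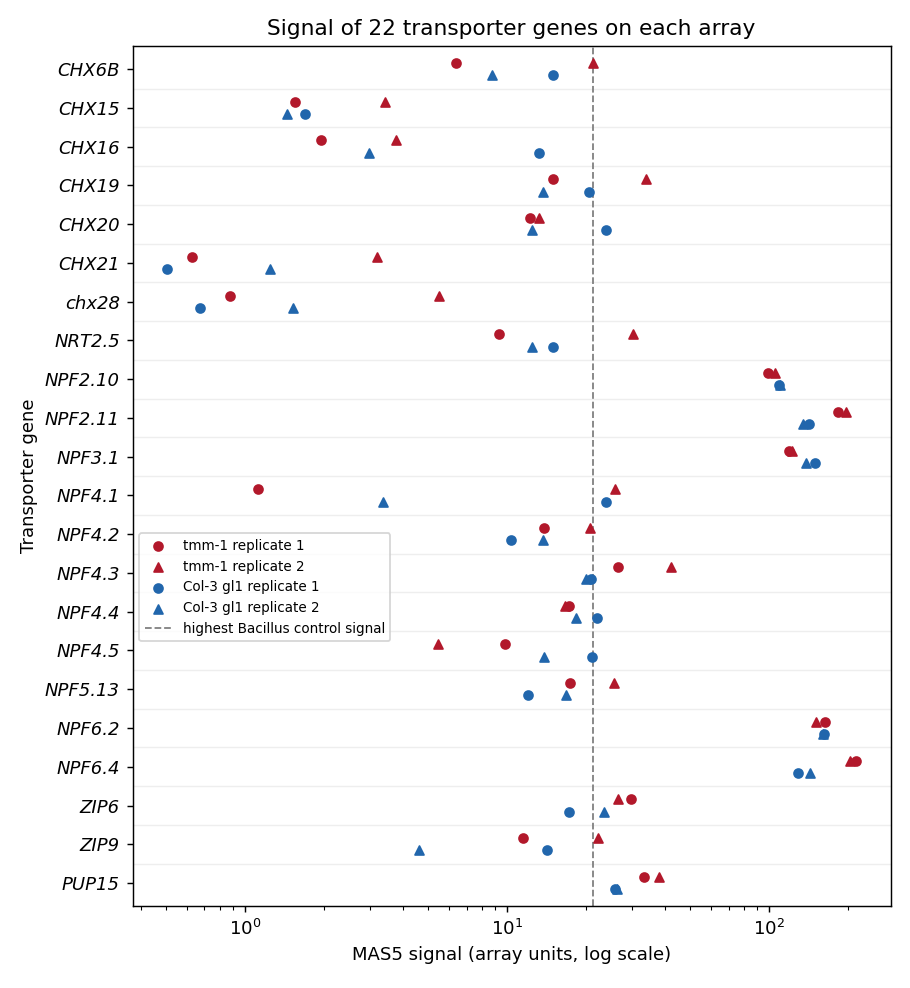
MAS5 signal of each of the 22 transporter genes (log scale, array units) on the tmm-1 arrays (red) and the Col-3 gl1 arrays (blue), circles for replicate 1 and triangles for replicate 2. The dashed line marks the highest Bacillus control signal, 21.2. The 5 NPF genes to its right by a wide margin lie between 98.5 and 214, and most CHX signals lie to its left.

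Among the NPF genes, NPF6.4 came nearest to a call. NPF6.4 (AT3G21670, also known as NRT1.3) is a member of the subfamily that holds the nitrate transceptor NPF6.3. Its signals were 214 and 202 in tmm-1, against 129 and 143 in Col-3 gl1. Both tmm-1 pools lay above both control pools, and the gap between the lines was wider than the gap within either. The means were 208 ± 8.26 in tmm-1 and 136 ± 10.2 in Col-3 gl1 (SD, n = 2 each), a ratio of mean signals of 1.53. The log2 change was 0.58 ± 0.16 (SE, 95% interval 0.25 to 0.92, limma adjusted p = 0.122, unadjusted p = 0.00134). Its adjusted p ran from 0.0515, in a model with the pool as replicate block, to 0.686, without Col-3 gl1 replicate 1. The log2 change itself stayed between 0.51 and 0.65 whichever array was left out.

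NPF6.2 (AT2G26690, also known as NRT1.4), which stores nitrate in the petiole, is the other gene of that subfamily with a named probe set. It had signals of 163 and 151 in tmm-1, against 162 and 160 in Col-3 gl1. The lines overlapped. Its log2 change was -0.03 ± 0.16, and the 95% interval of -0.37 to 0.30 overlaps the NPF6.4 interval of 0.25 to 0.92. The difference between these 2 genes was not itself tested.

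The glucosinolate importers NPF2.10 and NPF2.11, known as GTR1 and GTR2, load these defence compounds into the phloem and move them to seeds. NPF2.11 (AT5G62680) had signals of 182 and 196 in tmm-1, against 141 and 134 in Col-3 gl1. Every tmm-1 signal was above every control signal. Means of 189 ± 9.81 in tmm-1 and 138 ± 4.93 in Col-3 gl1 (SD, n = 2 each) gave a ratio of 1.37 and a log2 change of 0.43 ± 0.16 (SE, 95% interval 0.10 to 0.76, limma adjusted p = 0.374). NPF2.10 (AT3G47960) gave 98.5 and 105 in tmm-1, against 109 and 110 in Col-3 gl1. These groups did not overlap either, but by a small margin, with a log2 change of -0.10 ± 0.17 (95% interval -0.45 to 0.26, limma adjusted p = 0.927). The 2 intervals overlap each other, and the difference between the importers was not tested.

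NPF3.1 (AT1G68570), which carries gibberellin and nitrite, had signals of 119 and 122 in tmm-1, against 149 and 138 in Col-3 gl1. Both tmm-1 signals lay below both control signals. The means were 120 ± 2.62 in tmm-1 and 143 ± 7.89 in Col-3 gl1 (SD, n = 2 each), and the log2 change was -0.23 ± 0.17 (SE, 95% interval -0.58 to 0.11, limma adjusted p = 0.758).

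The NPF4 subfamily holds carriers that import abscisic acid or gibberellin when expressed in yeast, and 5 of its genes were measured. Their signals ran from 1.12 to 42.0, and none of the 5 exceeded the yardstick of background on all 4 arrays. NPF4.3 (AT1G59740) had signals of 26.5 and 42.0 in tmm-1, against 20.8 and 19.9 in Col-3 gl1. The groups did not overlap, and the log2 change was 0.52 ± 0.29 (SE, limma adjusted p = 0.647), or 0.26 without tmm-1 replicate 2. NPF4.5 (AT1G27040, also known as AIT2) had 9.78 and 5.44 in tmm-1, against 21.0 and 13.8 in Col-3 gl1. All 4 of these signals were at or under the yardstick, so no ratio is given, and the log2 change of -0.64 ± 0.43 (SE, limma adjusted p = 0.733) moved to -1.12 with a pseudocount of 1 and to -0.44 with a pseudocount of 20. NPF4.4 (AT1G33440, also known as NRT1.13), whose product senses nitrate, had 17.2 and 16.7 in tmm-1, against 21.9 and 18.3 in Col-3 gl1, with a log2 change of -0.16 ± 0.34 (SE) that was -0.07 without Col-3 gl1 replicate 1.

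NPF4.1 (AT3G25260) and NPF4.2 (AT3G25280) lie close together on a chromosome, with 2 protein-coding genes between them in the TAIR10.1 assembly. NPF4.1 had signals of 1.12 and 25.7 in tmm-1, against 23.9 and 3.35 in Col-3 gl1. The pools within each line stood far apart, so the log2 change of -0.09 ± 0.54 (SE) ranged from -0.93 to 0.75 with an array left out. NPF4.2 had 13.8 and 20.7 in tmm-1, against 10.4 and 13.7 in Col-3 gl1, all at or under the yardstick. Its log2 change of 0.30 ± 0.39 (SE) was 0.12 without tmm-1 replicate 2. NPF5.13 (AT1G72125), of another NPF subfamily, had 17.4 and 25.5 in tmm-1, against 12.03 and 16.7 in Col-3 gl1, and only tmm-1 replicate 2 exceeded the yardstick. Its log2 change of 0.36 ± 0.36 (SE) was 0.18 without that array. Over the 11 NPF genes the log2 change was above 0 in 5 and below 0 in 6, with a median of -0.03. That median was 0.48 without tmm-1 replicate 1.

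**Figure D2:**
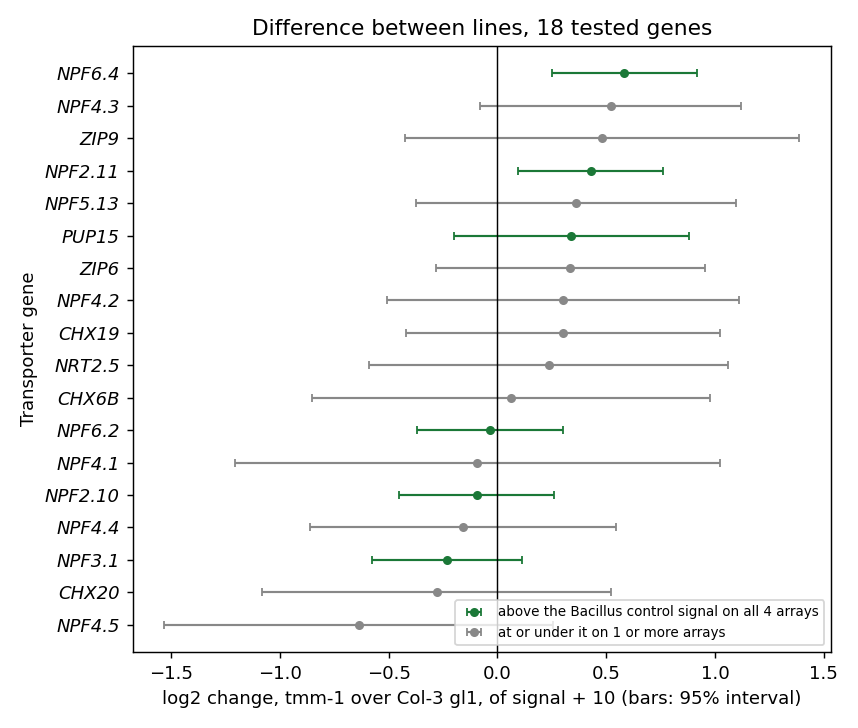
Log2 change (tmm-1 over Col-3 gl1, of signal plus 10) of the 18 tested transporter genes, with 95% intervals from limma, from NPF4.5 at -0.64 to NPF6.4 at 0.58. Green marks the 6 genes above the Bacillus control signal on all 4 arrays; the intervals of NPF6.4 and NPF2.11 lie above 0 before adjustment for multiple tests, and no gene was called.

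NRT2.5 (AT1G12940), a high-affinity nitrate transporter known from roots and leaf veins of nitrogen-starved plants, was the NRT gene with a named probe set. Its signals were 9.30 and 30.2 in tmm-1, against 14.9 and 12.5 in Col-3 gl1. The tmm-1 pools lay on either side of both control pools. The log2 change of 0.24 ± 0.40 (SE, limma adjusted p = 0.922) was -0.29 when tmm-1 replicate 2 was left out and 0.76 when tmm-1 replicate 1 was. The root and vein markers EXP7, EXP18 and SWEET11 were highest on tmm-1 replicate 2 as well. The meristem, tapetum and pollen markers CLV3, UFO, AMS, ANX1 and ANX2, all at or under 10.8 on every array, were also highest there. So were 49.9% of all tested probe sets with a mean under 30, and 50.4% of probe sets under the filter. Those dim markers and EXP7 were under the filter, while SWEET11, with a mean of 48.9, belonged to neither group. The pollen markers TUA1 and MGH3, the guard cell markers FAMA and BLUS1 and the photosynthesis markers RCA and PRK were not highest on that array. EXP18, a root hair expansin gene, had 5.96 and 46.3 in tmm-1, against 4.21 and 8.27 in Col-3 gl1. Only its signal on tmm-1 replicate 2 exceeded the yardstick, and EXP7 was at or under 13.4 on every array. The 2 root markers measured, of 8 listed, summed to 9.89 and 59.7 in tmm-1 and 16.1 and 12.55 in Col-3 gl1. SWEET11, a sucrose exporter gene of veins and the measured 1 of 10 vascular markers, had 33.1 and 81.9 in tmm-1, against 42.1 and 38.4 in Col-3 gl1. The part of these markers in the NRT2.5 values was not tested.

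CHX signals lay mostly at or under the yardstick of background, and 4 of the 7 genes were under the filter and not tested. CHX20 (AT3G53720), an exchanger of guard cell endomembranes that takes part in light-induced stomatal opening, had 12.2 and 13.3 in tmm-1, against 23.9 and 12.4 in Col-3 gl1. Only Col-3 gl1 replicate 1 stood above the yardstick, and the tmm-1 pools fell between the 2 control pools or just under the lower. The log2 change was -0.28 ± 0.39 (SE, limma adjusted p = 0.898), and 0.02 without Col-3 gl1 replicate 1. Of the guard cell markers that had a named probe set, the transcription factor gene FAMA had 50.0 and 63.8 in tmm-1, against 69.9 and 64.0 in Col-3 gl1, while BLUS1 was at or under 8.27 on every array. Their part in the CHX20 values was not tested.

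CHX19 (AT3G17630), which acts with its close relatives in pollen and seed development, had 15.0 and 33.9 in tmm-1, against 20.5 and 13.7 in Col-3 gl1. The groups overlapped, and the log2 change of 0.30 ± 0.35 (SE) was -0.11 without tmm-1 replicate 2. CHX6B (AT1G08135) had 6.40 and 21.2 in tmm-1, against 15.0 and 8.78 in Col-3 gl1, with a log2 change of 0.06 ± 0.45 (SE). It turned to -0.40 without tmm-1 replicate 2, to -0.14 without Col-3 gl1 replicate 2 and to -0.08 after quantile normalization. The median log2 change of the 3 tested CHX genes was 0.06, and it was 0.53 when tmm-1 replicate 1 was left out and -0.31 when tmm-1 replicate 2 was.

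The untested CHX genes were at or under 13.2 on all arrays. CHX16 (AT1G64170) had signals of 1.94 and 3.78 in tmm-1, against 13.2 and 2.98 in Col-3 gl1. CHX21 (AT2G31910), known with CHX23 for the guidance of pollen tubes to ovules, had 0.627 and 3.19 in tmm-1, against 0.504 and 1.25 in Col-3 gl1. CHX15 (AT2G13620) had 1.55 and 3.43 in tmm-1, against 1.69 and 1.45 in Col-3 gl1, and chx28 (AT3G52080) had 0.877 and 5.48 in tmm-1, against 0.674 and 1.53 in Col-3 gl1. CHX15, CHX21 and chx28 each had their highest signal on tmm-1 replicate 2, as did 50.4% of all probe sets under the filter.

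Markers of the pollen and anther, where several CHX genes are known to act, were mostly at or under the yardstick too. Late pollen genes ANX1, ANX2 and MGH3 were at or under 4.97 on every array, and the tapetum regulator AMS was at or under 10.8. TUA1, a tubulin gene prominent in pollen, had 81.9 and 84.5 in tmm-1, against 102 and 101 in Col-3 gl1. The summed signal of the 4 late pollen genes measured, of 11 listed, was 89.7 and 95.6 in tmm-1 and 107 and 106 in Col-3 gl1. Most of that sum was TUA1. Of the others, all far under the yardstick, ANX2 went the other way, with 4.77 and 4.97 in tmm-1, against 1.05 and 1.35 in Col-3 gl1. The mean of ANX1 was also higher in tmm-1, and that of MGH3 was lower. The part of these markers in the CHX values was not tested. Among 16 listed meristem and flower markers, CLV3 and UFO had a named probe set, and both were at or under 4.35 on every array. With 2 of 16 markers measured, both under the yardstick, these probe sets cannot decide whether the tissue label holds.

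**Figure D3:**
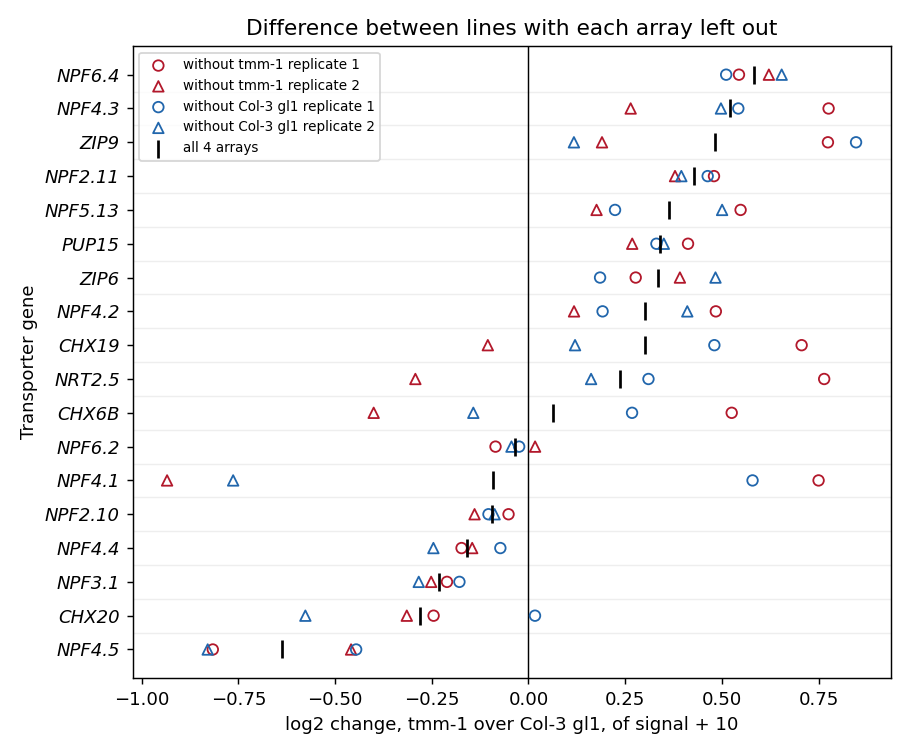
Log2 change (tmm-1 over Col-3 gl1, of signal plus 10) of the 18 tested genes with all 4 arrays (black bars) and with each array left out (red for tmm-1 and blue for Col-3 gl1, circles for replicate 1 and triangles for replicate 2). NPF6.4 stays between 0.51 and 0.65, NPF2.11 between 0.38 and 0.48, and NPF4.1 spans -0.93 to 0.75.

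The zinc transporter genes ZIP6 and ZIP9 and the purine permease gene PUP15 were each higher in mean signal in tmm-1 without passing the test. ZIP6 (AT2G30080) had 29.6 and 26.6 in tmm-1, against 17.2 and 23.5 in Col-3 gl1. Its groups did not overlap, and the log2 change was 0.33 ± 0.30 (SE, 95% interval -0.28 to 0.95, limma adjusted p = 0.819). It ranged from 0.19, without Col-3 gl1 replicate 1, to 0.48, without Col-3 gl1 replicate 2. ZIP9 (AT4G33020), known as a gene induced by zinc deficiency, had 11.5 and 22.2 in tmm-1, against 14.2 and 4.62 in Col-3 gl1. The lines overlapped, and the log2 change of 0.48 ± 0.44 (SE, limma adjusted p = 0.822) ranged from 0.12 to 0.85 with an array left out. PUP15 (AT1G75470) had 33.4 and 37.9 in tmm-1, against 25.8 and 26.2 in Col-3 gl1. Both tmm-1 signals lay above both control signals, with means of 35.6 ± 3.23 in tmm-1 and 26.0 ± 0.338 in Col-3 gl1 (SD, n = 2 each), a ratio of 1.37 and a log2 change of 0.34 ± 0.26 (SE, 95% interval -0.20 to 0.88, limma adjusted p = 0.777).

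Counted over the set, both tmm-1 signals were above both control signals in 7 of 18 tested genes (38.9%), against 21.5% of all tested probe sets. They were below both in 4 (22.2%), against 16.8%. Thus 11 of 18 (61.1%) did not overlap between the lines, against 38.3% over all tested probe sets, with no test made of the difference in shares. The 7 were NPF2.11, NPF4.2, NPF4.3, NPF5.13, NPF6.4, ZIP6 and PUP15, and the 4 were NPF2.10, NPF3.1, NPF4.4 and NPF4.5. Most were NPF genes, all named by synonym, with 5 above and 4 below among 11. Of the 7 tested genes named by symbol, 2 lay above and 0 below. NPF4.2 and NPF4.5 were at or under the yardstick on all 4 arrays, and NPF4.4 and NPF5.13 exceeded it on 1 array each. Standard errors of the 5 bright NPF genes ran from 0.16 to 0.17 on the log2 scale, while those of the CHX genes ran from 0.35 to 0.45, so differences in CHX genes were measured less precisely.

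Among other membrane transporters with their own probe set, none was called. Of 10 such genes, 6 passed the filter. Of these 6, 0 had an adjusted p below 0.05 in limma, against 0.613% of all tested probe sets. At an unadjusted p below 0.05 the count was 0 too, against 8.81%. The median log2 change of the 6 was 0.12, with a range of -0.13 to 0.30. MTP11, a manganese transporter gene, had 384 and 348 in tmm-1, against 346 and 405 in Col-3 gl1, with a log2 change of -0.03 ± 0.15. AZG1, a purine transporter gene, was at 0.17 ± 0.26, and the glutamate receptor-like channel genes GLR1.4, GLR3.3, GLR3.5 and GLR3.6 made up the rest.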

How the data were processed

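The authors deposited 1 intensity value per probe set and array, a MAS5 signal on a linear scale; MAS5 and GCOS are named per the submitters' processing notes. The 2% trimmed mean of each deposited array was 100.01, so no rescaling was done; such scaling hides any change in total RNA. Probe sets were named from the platform annotation joined by Entrez ID to RefSeq genes of TAIR10.1. Of 22810 probe sets, 13513 had a single symbol, 503 several, and 8794 were not listed. Each of the 22 genes had 1 probe set.

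Signals plus a pseudocount of 10 were put on the log2 scale, which understates changes of dim genes. Probe sets with a mean of at least 10 entered lmFit and eBayes (limma 3.58.1, R 4.3.3) with an intensity trend, two-sided, with Benjamini-Hochberg adjustment over all 16960 tested. With 2 arrays per line an exact permutation test cannot go below 0.33, and the number of arrays limits the precision. Standard errors rest mostly on the trend (23.6 prior degrees of freedom).

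Named genes were the brightest and the smallest-p gene of each family, called genes, CHX20 and tested genes of the role lists; with so few genes all 22 are given. Role lists measured were guard cell and abscisic acid (1 of 13), tapetum and pollen (2 of 14), nitrate transport (2 of 18), cuticle (0 of 5) and auxin transport (0 of 5). These totals count listed names. The guard cell and nitrate lists each hold both NPF6.3 and NRT1.1, which name the same gene. The genes and lists were chosen with earlier results of these data known, and the use of synonyms and of lower-case symbols was settled after the files were read. Pool numbers served as replicate numbers. The main model used no block, since the labels do not say that pool numbers mark a shared day or batch. Across tested probe sets, arrays with the same number deviated from their line's mean with a correlation of 0.032.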

Additional observations from a re-analysis of the deposited data

How the results depend on the processing

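The count of transporter genes called in limma was 0 in the main model and in every alternative run, with 0 higher and 0 lower: pseudocounts of 1 and 20, quantile normalization, scaling to the median, no filter, a filter of 30, no variance trend, robust variances, the replicate block, an adjusted p below 0.1, and each array left out. With all 4 arrays in the model, the count at an unadjusted p below 0.05 was 2 in the main model, or 11.1% against 8.81% of all tested probe sets. It was 1 after scaling to the median, 3 with no variance trend and 2 in the other alternatives. Over all probe sets the 104 calls became 69 after quantile normalization, 17 with no filter, 0 with no variance trend, 191 with the replicate block, 162 at an adjusted p below 0.1, and 80 to 572 with an array left out (572 without tmm-1 replicate 1). With an array left out, the lone sample of a line is assumed to vary like the other line. Whether pool numbers mark a shared day is not stated. The replicate block changed no call of a transporter gene at 0.05, with NPF6.4 nearest at a limma adjusted p of 0.0515. It left each log2 change as it was, at 0.58 for NPF6.4. The threshold of 0.1 was applied to the main model only. NPF6.4 would pass it with the replicate block and with robust variances (limma adjusted p = 0.0993).

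Of 18 tested genes, 12 kept their sign in each of the 13 alternative models that tested them (the filter of 30 tested 6 genes) and 6 did not, and the cause was not tested. With an array left out, log2 changes were -0.40 to 0.53 for CHX6B, -0.11 to 0.71 for CHX19, -0.58 to 0.017 for CHX20, -0.29 to 0.76 for NRT2.5, -0.93 to 0.75 for NPF4.1 and -0.085 to 0.017 for NPF6.2. CHX6B was also -0.077 after quantile normalization. Median log2 changes with an array left out were -0.044 to 0.48 for all tested transporter genes, -0.31 to 0.53 for CHX, 0.29 to 0.53 for ZIP and -0.044 to 0.48 for NPF. The ZIP median, 0.41 in the main model, was 0.67 with a pseudocount of 1. A filter of 30 left 6 genes, with no CHX, ZIP or NRT gene. Averaging a gene's probe sets changed nothing, since each had 1. Scaling to the median moved the median of all probe sets from 0.03 to -0.05. Low signal over background limits every CHX, NPF4, NPF5.13, NRT2.5 and ZIP value.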
